A study of Homo sapiens with 8 samples.

Results

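The ZNF genes of human chromosome 19 form a large neighbourhood of C2H2 zinc finger genes. They were taken here as the protein-coding genes of the GENCODE annotation of hg38 that lie on chromosome 19 and whose symbol is ZNF followed by a number. The rule found 249 genes among the 1476 protein-coding genes of that chromosome, and 19970 protein-coding genes on chromosomes 1 to 22 and X formed the whole set. The rule used names only and no measured value, although the set was chosen with earlier results of these data known. It includes 3 read-through genes that join neighbouring ZNF genes, namely ZNF559-ZNF177, ZNF625-ZNF20 and ZNF816-ZNF321P. The other 1227 protein-coding genes of chromosome 19 served for comparison.

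Most proteins of this family carry a row of C2H2 fingers, small folds held by a zinc ion that each read a few bases of DNA. Many also carry a KRAB domain, which recruits the corepressor TRIM28 and, through it, enzymes that set silent chromatin, and many recognise transposable elements. The genes arose by repeated duplication and stand side by side in clusters. The exon that encodes the fingers is usually the last one, and in many cell types the body of such a gene carries marks of silent chromatin while its promoter remains active. Sp1 is a ubiquitous activator that binds GC-rich promoters, in particular the GC box GGGCGG. CTCF is a zinc finger protein with a long recognition sequence that marks insulators and the anchors of chromatin loops.

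Chromatin immunoprecipitation followed by sequencing (ChIP-seq) had been carried out in U-2 OS, a human osteosarcoma cell line, after 6 min of crosslinking in 1% formaldehyde. For Sp1, cells with an endogenous V5-Halo-SP1 knock-in were used, with 2 different rabbit antibodies (1 library each) and with normal rabbit IgG (1 library). For CTCF, 2 replicate libraries came from clone C32, which carries an endogenous FLAG-Halo-CTCF knock-in. The titles of the Sp1 and IgG libraries call the cells parental although their genotype field gives the knock-in, and the description of the series names wild-type cells for CTCF, where the sample labels name the clone. All Sp1 and IgG data thus came from the same tagged line and all CTCF data from a single clone, and the libraries of the 2 proteins were sequenced on different instruments, so that protein, line and instrument cannot be told apart. Peak lists hold no expression values, and the identity of the cells was not checked against markers.

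The lists held 8706 peaks for antibody 1, 5973 for antibody 2, 42765 and 36082 for CTCF replicates 1 and 2, and 106 for IgG. Of these, 847, 552, 1620, 1367 and 2 lay on chromosome 19. Each peak carries a fold enrichment over its control, a ratio given by the peak caller, and a summit, the base of the highest signal. The lists hold no read counts, so the depth behind a value is unknown and an absent peak means no summit in the list. A promoter summit is one within 1 kb of any annotated transcript start of a gene. Shares carry 95% Wilson intervals and differences between shares carry 95% Newcombe intervals. Both cover counting error over genes only, and neighbouring genes are not independent. With 1 library per Sp1 antibody no test over samples was possible and no p-value was computed.

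The sequences below were read from the hg38 reference and are written 5′ to 3′ on the strand of the gene. The first set lies around Sp1 summits and was picked to show motifs that are counted further on. The capitals mark GGGCGG, the GC box, in the promoters of ZNF784 and ZNF808, which had the highest antibody 1 signal. They mark CCGGAA, the letters at the core of sites for ETS factors, in the promoters of ZNF302 and ZNF579, which had the highest antibody 2 signal. They mark ACTACA, letters found in the recognition sequence of the factor ZNF143, in ZNF225, ZNF226 and ZNF284, chosen because they hold it, from among the genes with an antibody 2 summit only. Each motif was sought on both strands, and a match on the other strand is marked as its reverse complement.
ZNF784, chr19:55624356-55624436, minus strand: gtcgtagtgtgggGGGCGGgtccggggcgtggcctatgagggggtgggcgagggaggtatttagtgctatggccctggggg
ZNF808, chr19:52527557-52527637, plus strand: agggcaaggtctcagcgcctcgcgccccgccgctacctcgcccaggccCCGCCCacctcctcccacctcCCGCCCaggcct
ZNF302, chr19:34677251-34677331, plus strand: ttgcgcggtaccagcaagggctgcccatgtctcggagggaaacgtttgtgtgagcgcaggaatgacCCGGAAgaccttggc
ZNF579, chr19:55580885-55580965, minus strand: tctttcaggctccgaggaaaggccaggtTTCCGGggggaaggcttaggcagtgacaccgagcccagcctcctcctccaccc
ZNF225, chr19:44113296-44113376, plus strand: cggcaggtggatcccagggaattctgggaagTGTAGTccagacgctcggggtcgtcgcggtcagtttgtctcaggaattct
ZNF226, chr19:44164856-44164936, plus strand: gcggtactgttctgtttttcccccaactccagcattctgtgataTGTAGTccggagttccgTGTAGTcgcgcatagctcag
ZNF284, chr19:44071915-44071995, plus strand: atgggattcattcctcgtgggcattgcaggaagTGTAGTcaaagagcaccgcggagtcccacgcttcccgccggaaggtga

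The next set gives the 100 bases before the start of the Ensembl canonical transcript of ZNF91, ZNF43 and ZNF90, which belong to a run of genes that had almost no summit in any list. Capitals mark GGGCGG and CCGGAA as before, together with the CCAAT box CCAATCAG. By edit distance, the stretches of ZNF91 and ZNF43 were 89% identical, those of ZNF91 and ZNF90 72% and those of ZNF43 and ZNF90 73%.
ZNF91, chr19:23395472-23395571, minus strand: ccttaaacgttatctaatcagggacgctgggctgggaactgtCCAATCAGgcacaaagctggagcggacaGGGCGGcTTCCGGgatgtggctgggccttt
ZNF43, chr19:21836183-21836282, minus strand: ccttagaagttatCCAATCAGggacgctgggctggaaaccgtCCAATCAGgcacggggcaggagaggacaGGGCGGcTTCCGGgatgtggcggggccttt
ZNF90, chr19:20077900-20077999, plus strand: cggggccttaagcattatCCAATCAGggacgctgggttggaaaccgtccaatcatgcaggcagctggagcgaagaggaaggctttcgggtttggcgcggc

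The last set lies around CTCF replicate 1 summits, at the promoters of ZNF554, ZNF329 and ZNF491 and in the last exon of ZNF473, which led the ZNF genes in those regions by the mean log2 fold of both replicates. Capitals mark the stretch closest to the CTCF core motif, with 3 mismatches in ZNF554, 1 in ZNF329, 1 in ZNF491 and 2 in ZNF473. A closest stretch can be marked in any sequence. A match was set to allow 1 mismatch, so the stretches in ZNF554 and ZNF473 do not count as matches.
ZNF554, chr19:2819729-2819809, plus strand: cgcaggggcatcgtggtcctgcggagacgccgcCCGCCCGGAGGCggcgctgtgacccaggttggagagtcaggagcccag
ZNF329, chr19:58155220-58155300, minus strand: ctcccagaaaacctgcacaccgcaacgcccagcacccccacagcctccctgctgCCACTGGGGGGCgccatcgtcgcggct
ZNF491, chr19:11797576-11797656, plus strand: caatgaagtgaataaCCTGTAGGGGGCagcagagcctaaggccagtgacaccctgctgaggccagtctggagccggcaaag
ZNF473, chr19:50047011-50047081, plus strand: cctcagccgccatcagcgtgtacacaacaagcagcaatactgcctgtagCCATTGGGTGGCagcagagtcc

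The first comparison asked how often Sp1 was recovered at the promoters of ZNF genes. Antibody 1 had a promoter summit at 126 of the 249 genes, 50.6% (interval 44.4 to 56.8), where 46.9% of all protein-coding genes of chromosome 19 and 37.5% of those of the whole set had one. The other genes of the chromosome reached 46.1%, so the difference was 4.47 percentage points, with an interval of −2.30 to 11.2 that includes 0. When only the canonical start of each gene was scored, the shares were 47.4% and 38.6%, and the difference of 8.76 points (2.05 to 15.5) no longer included 0. It was 8.39 points (1.63 to 15.1) within 500 bp of any start, while within 5 kb of any start it turned to −3.19. Antibody 2 had a promoter summit at 99 genes, 39.8% (33.9 to 45.9), against 33.9% of all genes of the chromosome and 24.2% of the whole set. It differed from the 32.7% of the other genes by 7.08 points (0.619 to 13.8). The interval included 0 when peak intervals replaced summits, with 5.69 points (−0.776 to 12.4), and when genes whose window overlaps that of the other class were left out, with 5.90 points (−0.962 to 13.1). Both antibodies had a summit at 83 genes, 33.3%, against a background of 30.5% on the chromosome and 21.2% in the whole set, and the difference from the other genes was 3.42 points (−2.73 to 9.99). It was 6.96 (1.01 to 13.4) at canonical starts, 7.17 (1.06 to 13.7) within 500 bp and −4.08 within 5 kb. Antibody 2 gave 10.7 points (4.39 to 17.3) at canonical starts, 10.1 (3.66 to 16.8) within 500 bp and 0.214 within 5 kb. At least one antibody had a summit at 142 genes, 57.0%, where the background was 50.3% on the chromosome and 40.4% in the whole set, 8.13 points above the other genes (1.32 to 14.7). IgG had no promoter summit at any of the 249 genes, which allows a share of up to 1.20%, and 1 at the other genes, where the background was 0.0678% on the chromosome and 0.025% in the whole set.

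ZNF genes on other chromosomes, 266 in number, gave 47.0% for antibody 1, 32.3% for antibody 2 and 26.7% for both. Sp1 summits at ZNF promoters sat close to the start. Their median position was 45 bases upstream for antibody 1 and 44 bases upstream for antibody 2, and 112 of 126 (88.9%) and 81 of 99 (81.8%) lay within 200 bp. At the other genes of the chromosome, 64.7% and 61.8% did. The 126 genes with an antibody 1 summit were reached by 121 distinct peaks, of which 14 were near more than 1 ZNF gene and 20 were also near another gene. For antibody 2 the numbers were 95, 11 and 13. No peak at a ZNF promoter overlapped an IgG peak.

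**Figure D1:**
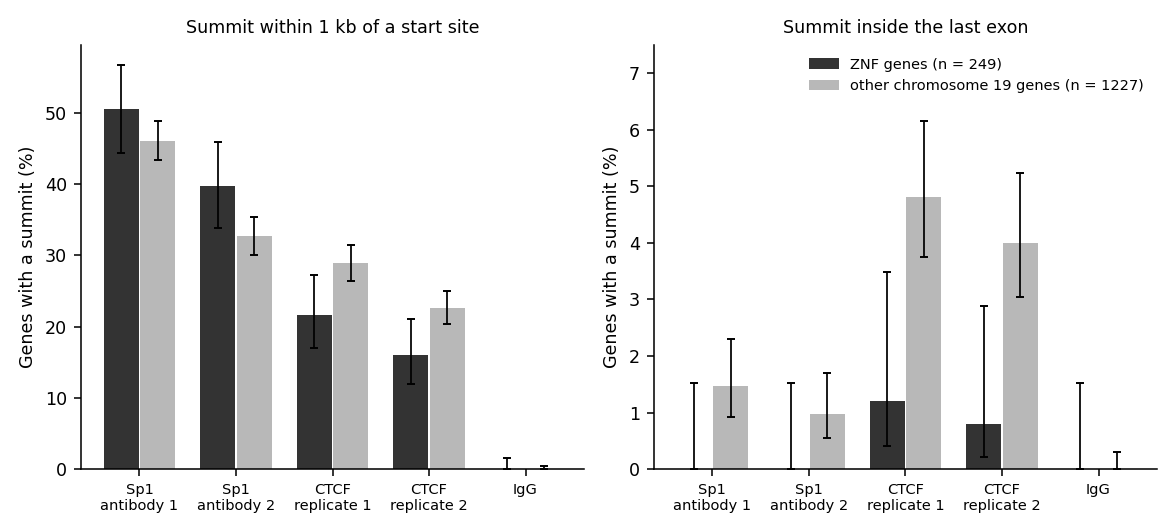
Share of genes (%, vertical axes) with a promoter summit (left) and with one inside the last exon (right) in each list, for the 249 ZNF genes (dark bars) and the 1227 other protein-coding genes of chromosome 19 (grey bars), with error bars for 95% Wilson intervals. At promoters, Sp1 shares of the ZNF genes were near or above those of the other genes, 50.6% against 46.1% for antibody 1. In last exons no ZNF gene had an Sp1 summit, against 1.47% and 0.978% of the other genes for antibodies 1 and 2. CTCF shares of the ZNF genes were below those of the other genes in both regions.

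Median signal at these promoters was near that of the whole set and below that of the other genes of the chromosome. Over the genes with a summit, the median fold enrichment for antibody 1 was 8.85 (range 3.66 to 60.8) at ZNF genes. It was 11.9 at the other genes of the chromosome and 8.85 in the whole set. For antibody 2 the medians were 6.89 (3.38 to 92.1), 7.65 and 7.02. ZNF784 had the highest antibody 1 fold, 60.8, and a fold of 36.2 with antibody 2. ZNF808 followed with 43.5 and 24.0. These genes were high with both antibodies. ZNF302 had a fold of 9.21 with antibody 1 and 92.1 with antibody 2. ZNF579 had 10.1 and 78.9. ZNF490 and ZNF791, which overlap on opposite strands and share a single peak, had 12.1 and 60.4. The antibody 1 folds of these genes lay between the median and the upper quartile of 12.1, the latter reached by ZNF490 and ZNF791, and their antibody 2 folds were among the highest.

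The 2 antibodies ordered the ZNF promoters differently. Over the 83 genes with both summits, Spearman's rho between the fold enrichments was 0.208 and Pearson's r of the log2 values was 0.097, as a description over genes that share 2 libraries, some of them the same peaks. Over 367 other genes of the chromosome the values were 0.471 and 0.302. Antibody 2 was higher at 29 of the 83 ZNF genes and at 39 of the 367 others. It exceeded antibody 1 by more than 4-fold at 11 of the 83 and at 11 of the 367. Beside ZNF302, ZNF579, ZNF490 and ZNF791, these were ZNF561 with 9.66 and 66.5, ZNF461 with 7.62 and 59.2, ZNF837 with 7.65 and 54.0, and 2 neighbouring pairs. ZNF569 and ZNF570, which share a peak, had 5.29 and 54.8. ZNF580 had 4.43 and 58.0, and ZNF581 had 6.39 and the same antibody 2 value. The 11 genes are thus not 11 separate sites. Each fold was taken at the highest summit in the window, so the summits of the antibodies need not coincide. Antibody 1 exceeded antibody 2 by more than 4-fold at 2 ZNF genes, ZNF414 with 31.4 and 6.40 and ZNF497 with 33.8 and 5.57, and at 18 of the 367 others. These genes were named after their values were seen, and with 1 library per antibody the size of such a gap has no replicate check.

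**Figure D2:**
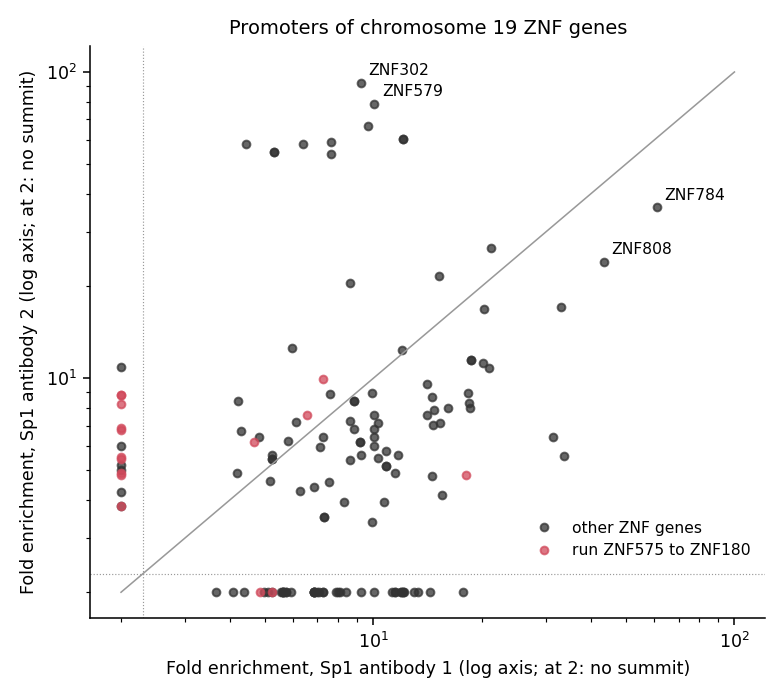
Fold enrichment at the promoter for Sp1 antibody 1 (horizontal, log axis) and antibody 2 (vertical, log axis), 1 point for each ZNF gene with a summit in either list, with genes lacking a summit placed at 2, beyond the dotted lines, and the diagonal marking equal fold. A group of points with antibody 2 folds from 54.0 to 92.1 lies far above the diagonal, and red points, the genes from ZNF575 to ZNF180, lie mostly at the left edge, with a summit for antibody 2 only.

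Single-antibody promoters were counted as well. Antibody 1 alone had a summit at 43 ZNF genes, 17.3%, against 16.2% of the other genes of the chromosome. ZNF582 had the highest fold among them, 17.7, followed by ZNF526 with 14.3, ZNF471 with 13.3 and ZNF443 with 12.9. Antibody 2 alone had a summit at 16 ZNF genes, 6.43% (3.99 to 10.2), against 2.77% (1.99 to 3.85) of the others, so these intervals do not overlap. Their fold ranged from 3.81 to 10.9 with a median of 5.50. ZNF549 was the highest with 10.9, followed by ZNF226 with 8.83, ZNF225 with 8.79 and ZNF284 with 8.23. ZNF224, whose product is a KRAB repressor, had 6.89 with antibody 2 and no summit with antibody 1, and ZNF350, which binds BRCA1, had 5.00 with antibody 2 only. Of the 16 genes, 10 stood in the same stretch of the chromosome, from ZNF575 to ZNF180, against 2 of the 43 genes with antibody 1 alone. The 10 genes were ZNF428, ZNF221, ZNF155, ZNF284, ZNF224, ZNF225, ZNF226, ZNF227, ZNF235 and ZNF112.

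The ZNF genes were then followed along the chromosome. A run was defined as consecutive ZNF genes whose starts were at most 500 kb apart. There were 20 runs, of which 10 held 5 or more genes and together 235 of the 249. The antibody 1 share of these 10 runs ranged from 2.70% to 92.3%. In the run from ZNF653 to ZNF791 (chr19:11483427-12640098), 24 of 26 genes had an antibody 1 summit, 92.3% (75.9 to 97.9), and 14 an antibody 2 summit. Their antibody 1 folds lay between 4.97 and 15.2, and the exceptions were ZNF491 and ZNF763. The run from ZNF565 to ZNF573 (chr19:36182276-37817300) had 20 and 19 of 26 genes, and its 19 genes with antibody 2 all had antibody 1 too. Those without a summit for either antibody were ZNF382, ZNF567, ZNF585A, ZNF527, ZNF607 and ZNF573. The run from ZNF628 to ZNF835 (chr19:55476617-56671783) had 13 and 8 of 16, and the run from ZNF175 to ZNF331 (chr19:51571283-53580269) had 27 and 17 of 40. In the most distal run, from ZNF264 to ZNF446 (chr19:57191500-58481230), 13 and 11 of 43 genes had a summit. The 3 smaller runs gave 3 and 3 of 5 genes from ZNF554 to ZNF77, 9 and 6 of 14 from ZNF414 to ZNF846 and 4 and 3 of 5 from ZNF302 to ZNF792. Of the 14 genes outside these runs, 6 had an antibody 1 summit and 4 an antibody 2 summit.

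The run from ZNF575 to ZNF180 (chr19:43525497-44500524) was the one in which antibody 2 reached more genes than antibody 1. Antibody 1 had a summit at 6 of 23 genes, 26.1% (12.5 to 46.5), and antibody 2 at 14, 60.9% (40.8 to 77.8). Both had one at 4 genes. Over the whole stretch antibody 1 had 11 summits and antibody 2 had 15, where the whole chromosome had 847 and 552. The 13 other protein-coding genes inside the stretch went the other way, with a promoter summit at 8 for antibody 1 and at 4 for antibody 2.

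The run from ZNF101 to ZNF254 (chr19:19668796-24129968), which lies next to the centromere, was nearly empty. It holds 37 genes over 4.46 Mb, among them ZNF91 and ZNF93, whose products silence retrotransposons, and ZNF43 and ZNF90. Antibody 1 had a promoter summit at 1 of them, ZNF492, with a fold of 7.24, which is 2.70% (0.479 to 13.8). Antibody 2 and the CTCF replicates had none, which allows a share of up to 8.11% in each list. The 3 other protein-coding genes inside the interval had no promoter summit with either Sp1 antibody, and none had a summit in both CTCF replicates. In the whole 4.46 Mb there was 1 antibody 1 summit and no antibody 2 summit, and the CTCF lists had 13 and 5, or 2.91 and 1.12 per Mb, where the chromosome had 27.7 and 23.4 per Mb. The antibody 1 list had 14.5 summits per Mb on the chromosome and 0.224 in the run.

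The run was set apart after its values were seen, so leaving it out could only raise the Sp1 shares, and the values without it are a description. Over the remaining 212 ZNF genes, 59.0% had an antibody 1 summit, 46.7% an antibody 2 summit and 39.2% both, which is 12.8, 14.0 and 9.24 points above the other genes of the chromosome.

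**Figure D3:**
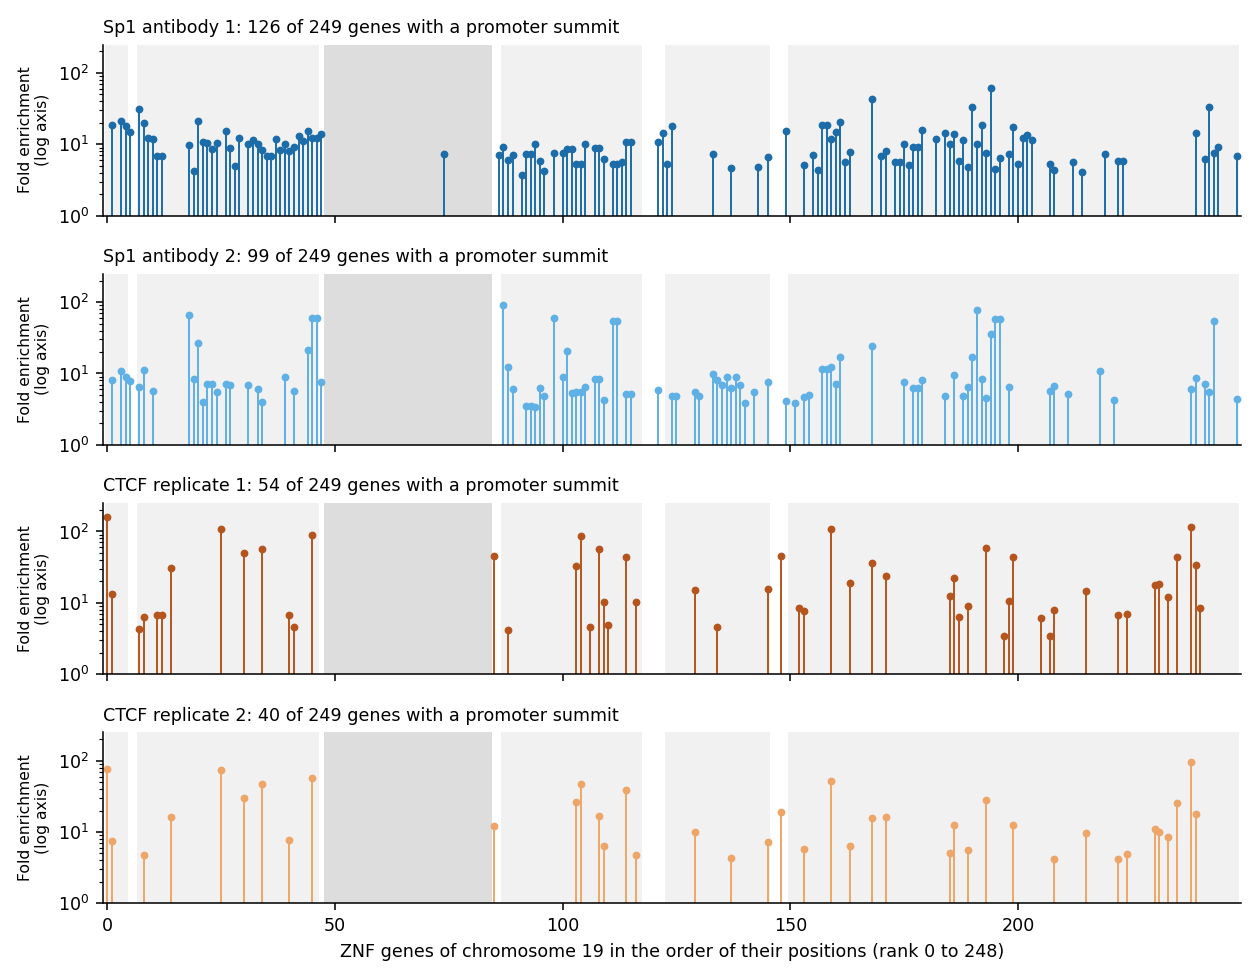
Fold enrichment of the highest promoter summit (log axes) for the 249 ZNF genes in the order of their positions (rank 0 to 248), in the lists of Sp1 antibodies 1 and 2 and CTCF replicates 1 and 2, with shading for runs of 5 or more genes and darker shading for the run from ZNF101 to ZNF254. The 37 genes of that run carry a single summit in the 4 lists together, at ZNF492.

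**Figure D4:**
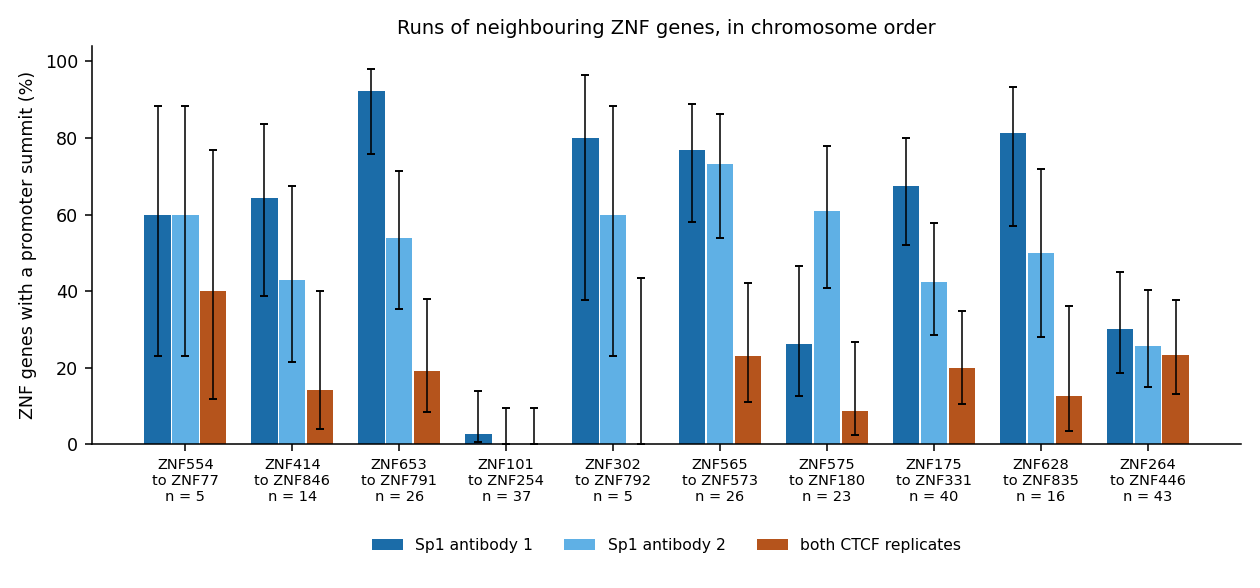
Share of ZNF genes (%, vertical axis) with a promoter summit in the 10 runs of 5 or more genes, in chromosome order, for Sp1 antibody 1, Sp1 antibody 2 and both CTCF replicates, with error bars for 95% Wilson intervals. Antibody 1 ranged from 2.70% in the run from ZNF101 to ZNF254 to 92.3% in the run from ZNF653 to ZNF791, and the run from ZNF575 to ZNF180 was the only one in which the antibody 2 bar stood above the antibody 1 bar.

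Sequence was compared in the 250 bases before and 50 bases after the canonical start. The GC box GGGCGG, on either strand, was found at 67.9% of ZNF promoters, 66.3% of those of other genes of the chromosome and 61.3% of the whole set. CCGGAA stood in 54.6%, against 23.4% and 22.8%. ACTACA stood in 28.5%, against 7.42% and 8.30%, and CCAATCAG in 26.5%, against 6.36% and 5.30%. At the 266 ZNF genes on other chromosomes, CCGGAA stood in 42.9%, ACTACA in 13.2% and CCAATCAG in 12.4%. These shares also lay above those of the whole set, so the excess was not particular to chromosome 19. CCAATCAG and ACTACA were chosen after sequences of the members had been looked at. TCGCGAGA, a motif of CpG-rich promoters, was rare, with 1.20%, 1.14% and 1.72%. The median GC content was 59.3%, 64.0% and 63.7%. These shares carry no test. The CCAAT letters were unevenly spread, since 36 of the 66 promoters with them lay in the run from ZNF101 to ZNF254, 23 in the run from ZNF653 to ZNF791 and 4 in the run from ZNF554 to ZNF77.

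The motifs were also counted by antibody, as a description. GGGCGG was found at 36 of the 43 promoters with antibody 1 alone (83.7%), at 60 of the 83 with both (72.3%), at 6 of the 16 with antibody 2 alone (37.5%) and at 67 of the 107 with neither (62.6%). ACTACA was found at 11 of the 16 with antibody 2 alone (68.8%) and at 7 of the 43 with antibody 1 alone (16.3%). It was found at 22 of the 83 with both (26.5%) and at 31 of the 107 with neither (29.0%). Of the 16 genes with antibody 2 alone, 10 stand in 1 run, where ACTACA was found in 16 of 23 promoters. The motif was also frequent in the runs from ZNF264 to ZNF446 (27 of 43) and from ZNF565 to ZNF573 (15 of 26). In these runs antibody 2 did not reach more genes than antibody 1. Within 50 bp of the summit, GGGCGG was present at 64.5% of antibody 1 peaks at ZNF promoters and 65.0% of those at other genes of the chromosome. For antibody 2 these shares were 45.3% and 52.1%, while CCGGAA was present at 30.5% and 15.4% and ACTACA at 12.6% and 4.84%. For antibody 1, CCGGAA was present at 16.5% and 9.84% and ACTACA at 6.61% and 2.19%. In CTCF replicate 1 the shares were 12.3% and 4.03% for CCGGAA and 10.5% and 2.27% for ACTACA. In CTCF replicate 2 they were 14.6% and 1.97%, and 7.32% and 1.64%. Both motifs were thus more frequent at ZNF promoters in all of these lists, not with antibody 2 alone. In the run from ZNF575 to ZNF180, GGGCGG stood in 10 of 23 promoters. A match is a string of letters and not a shown binding site.

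The GC box was present in the nearly empty run as well. GGGCGG was found in 26 of its 37 promoters (70.3%), CCGGAA in 28 (75.7%) and CCAATCAG in 36 (97.3%), while ACTACA was found in none. In the run from ZNF653 to ZNF791, where antibody 1 had a summit at 92.3% of genes, GGGCGG stood in 25 of 26 promoters, CCAATCAG in 23 and CCGGAA in 6. The median ratio of observed to expected CpG was 0.467 in the nearly empty run, 0.604 in the run from ZNF653 to ZNF791 and 0.767 over all ZNF promoters. The promoters of the nearly empty run were also the most alike. Over 666 pairs their median identity was 69.7%, and 49.7% of pairs reached 70%, where the medians of the other 9 runs lay between 47.0% and 52.3%. Stretches of 100 bases that recur elsewhere on the chromosome, where short reads are hard to place, made up 0.101% of the pooled sequence within 1 kb of the canonical starts of this run, 0.387% over all ZNF genes and 1.41% over the other genes.

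CTCF was compared in the same way. Replicate 1 had a promoter summit at 54 of the 249 ZNF genes, 21.7%, where 27.7% of all genes of the chromosome and 32.5% of the whole set had one. Replicate 2 had a summit at 40, 16.1%, against 21.5% and 24.9%. The mean of the replicates was 18.9% ± 3.98 (SD, n = 2) for ZNF genes and 25.8% ± 4.49 (SD, n = 2) for the others. Both replicates had one at 39 ZNF genes, 15.7% (11.7 to 20.7), against 21.1% of the chromosome and 24.3% of the whole set. The difference from the other genes of the chromosome was −7.25 points (−12.6 to −1.19) in replicate 1, −6.51 (−11.2 to −0.963) in replicate 2 and −6.51 (−11.2 to −0.999) for both. The difference for both replicates depended on the window. Within 500 bp of any start it was −2.81 points (−7.12 to 2.40). With the canonical start alone the shares were 12.4% and 12.5%, a difference of −0.0196 points, and within 5 kb of any start they were 24.5% and 45.6%, a difference of −21.1. Without the run from ZNF101 to ZNF254 the difference was −3.77 points (−9.00 to 2.41). ZNF genes on other chromosomes had 22.9% for both replicates.

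CTCF summits at ZNF promoters were also weaker. The median fold in replicate 1 was 13.9 (3.46 to 157) at the 54 ZNF genes and 34.7 at the others, and in replicate 2 it was 12.3 (4.15 to 95.9) and 31.3. The replicates ordered the 39 shared genes alike, with a rho of 0.936 and an r of 0.942 over genes, and replicate 2 was lower at all but 1 of them. ZNF554 had the highest signal, with folds of 157 and 76.9. ZNF329 had 117 and 95.9. ZNF616 had 110 and 52.4, and ZNF491 had 109 and 74.7. Of these genes, ZNF554 and ZNF491 had no Sp1 summit, ZNF329 had an antibody 2 summit of 6.00, and ZNF616 had Sp1 folds of 12.03 and 12.34. ZNF490 had 90.2 and 56.9 at its first start, whereas its shared Sp1 peak stood at an internal start. ZNF568 had 85.1 and 47.7 at an internal start, whereas its Sp1 summits of 5.23 and 5.43 stood at the first start. ZNF536, a neuronal repressor, had CTCF folds of 45.1 and 12.2 and no Sp1 summit. The run from ZNF264 to ZNF446 had most genes with both replicates, 10 of 43, among them the neighbours ZNF587B, ZNF814, ZNF417 and ZNF256 without Sp1.

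Few of these genes had promoter summits of both Sp1 and CTCF. The count was made over all starts of a gene. Sp1 and CTCF summits thus need not lie at the same start, and at ZNF490 and ZNF568 they did not. Both Sp1 antibodies and both CTCF replicates had a summit at 18 ZNF genes, 7.23% (4.62 to 11.1), against 10.4% (8.77 to 12.2) of the other genes of the chromosome. Both Sp1 antibodies without any CTCF list were found at 59 genes, 23.7% (18.8 to 29.4), against 16.7% (14.7 to 18.9). Among genes with both Sp1 antibodies, 21.7% (14.2 to 31.7) of ZNF genes and 34.6% (29.9 to 39.6) of the others had both CTCF replicates. Among genes with neither Sp1 antibody the shares were lower, 12.1% (7.24 to 19.7) and 15.2% (12.6 to 18.2). ZNF274, whose product marks the 3′ ends of ZNF genes with silent chromatin, was one of the 18, with Sp1 folds of 14.5 and 8.71 and CTCF folds of 34.1 and 17.9. ZNF808 had 43.5 and 24.0 for Sp1 and 36.2 and 15.9 for CTCF. ZNF331, an imprinted gene, had 4.83 and 6.40 for Sp1 and 8.97 and 5.55 for CTCF. No list had a promoter summit at 88 ZNF genes, 35.3% against 41.2% of the others. Among them were ZNF91, ZNF93, ZNF90, ZNF43, ZNF382, ZNF154 and ZNF132, the last 3 outside the nearly empty run. ZNF382, ZNF154 and ZNF132 are known for promoter methylation in tumours.

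The last exon of the canonical transcript was scored next, because it holds the fingers. In translated canonical coding sequences, the pattern of 2 cysteines and 2 histidines that defines a finger occurred 3106 times, and 3066 of these (98.7%) were encoded by the last exon. Of the 249 genes, 247 had at least 1 finger, with a median of 12 and a maximum of 36 in ZNF208. The last exons were long, with a median of 3338 bases against 732 at the other genes of the chromosome. The coding part of the last exon had a median of 1523 bases against 155.

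No ZNF gene had an Sp1 summit in its last exon, with either antibody, which allows a share of up to 1.20%. The other genes had 18 with antibody 1 (1.47%) and 12 with antibody 2 (0.978%), and the background was 1.22% and 0.813% on the chromosome and 0.476% and 0.295% in the whole set. The intervals of these differences, −2.31 to 0.144 points and −1.70 to 0.598, include 0, whereas that for at least one antibody, −1.87 points (−2.80 to −0.233), does not. No ZNF gene had such a summit, where the background was 1.56% on the chromosome and 0.601% in the whole set. Over the last exons of all transcripts the differences were −2.29 points (−3.56 to −0.0556) for antibody 1, where ZNF genes reached 0.803%, and −2.12 (−3.09 to −0.459) for antibody 2. Counted by length, the ZNF last exons, 0.923 Mb in all, had no Sp1 summit, which allows 3.25 per Mb, while those of other genes had 12.2 (7.24 to 19.3) per Mb for antibody 1 and 8.14 (4.21 to 14.2) for antibody 2. In the coding part alone a difference was not detectable, since 0 summits in ZNF genes allow 7.95 per Mb and the other genes had 5.31 with either antibody. IgG had no summit in a last exon of either group, and its background in the whole set was 0.00501%.

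CTCF summits in ZNF last exons were scarce. Replicate 1 had a summit in 3 (1.20%), where the background was 4.2% on the chromosome and 5.24% in the whole set and the other genes had 4.81%, a difference of −3.60 points (−5.17 to −1.09). Replicate 2 had a summit in 2 (0.803%), against 3.46% and 4.37%, and both replicates in the same 2, against 3.39% and 4.21%. The mean of the replicates was 1.00% ± 0.284 (SD, n = 2) for ZNF genes and 4.40% ± 0.576 (SD, n = 2) for the others. ZNF473, whose product takes part in the processing of histone mRNA, had folds of 100.5 and 51.0, and its summit lay at the end of the coding sequence, in the stretch printed with the CTCF sequences. ZNF575 had 9.45 and 4.88, and ZNF875 had 3.61 in replicate 1 only. As a share of genes this difference was lost when the coding part alone was scored, with 0.803% against 1.14% for both replicates, a difference of −0.338 points (−1.30 to 1.79). ZNF genes on other chromosomes had 13 of 266 (4.89%, 2.88 to 8.18) in replicate 1 and 12 (4.51%, 2.60 to 7.72) in replicate 2.

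Among the other genes the share with both CTCF replicates was 2.79% for last exons under 1 kb and was higher in each longer class, whereas among ZNF genes no class had more than 1 gene. With last exons over 4 kb, 1 of 89 ZNF genes (1.12%, 0.199 to 6.09) and 7 of 56 others (12.5%, 6.19 to 23.6) had both CTCF replicates. Between 2 and 4 kb the counts were 0 of 112, which the interval limits to 3.32%, and 10 of 172 (5.81%, 3.19 to 10.4). Per length, CTCF replicate 1 had 3.25 summits per Mb (0.671 to 9.50) in ZNF last exons and 38.7 (29.3 to 50.1) in those of the other genes, and replicate 2 had 2.17 (0.263 to 7.83) and 32.6 (24.0 to 43.2). In the coding part, 0.377 Mb in each group, the densities were 7.95 and 58.4 per Mb in replicate 1 and 5.30 and 37.2 in replicate 2. Over whole gene bodies the gap was smaller, with 9.67 against 31.1 per Mb in replicate 1, 7.15 against 25.7 in replicate 2, 6.89 against 17.6 for antibody 1 and 6.75 against 11.5 for antibody 2. Repeated sequence was similar in the groups: 1.06% of the 100-base stretches of ZNF last exons and 0.939% of those of other genes recurred on the chromosome, and 9 and 38 genes had over 10% of such stretches.

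**Figure D5:**
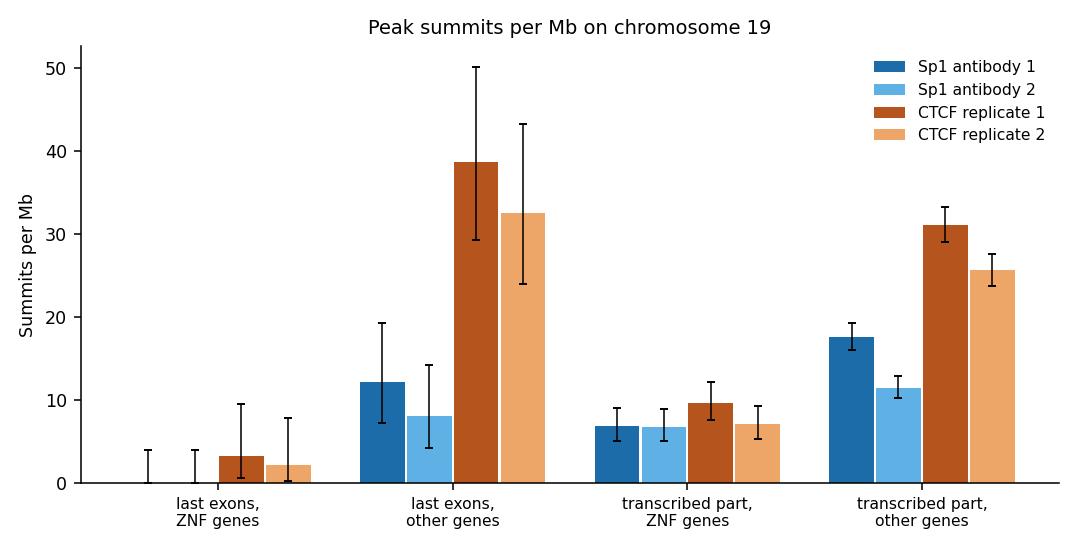
Peak summits per Mb (vertical axis) in the last exons and in the whole transcribed parts of the 249 ZNF genes and of the 1227 other genes of chromosome 19, for both Sp1 antibodies and both CTCF replicates, with error bars for 95% Poisson intervals. CTCF replicate 1 had 3.25 summits per Mb in ZNF last exons and 38.7 in those of other genes, and Sp1 had none in ZNF last exons.

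The partners through which KRAB zinc finger proteins silence chromatin were listed separately and are not members. Of 15 such genes, 12 had a promoter summit with antibody 1, where 37.5% of the whole set had one, 7 with antibody 2 (24.2%), 7 with both (21.2%), 8 in CTCF replicate 1 (32.5%), 4 in replicate 2 (24.9%) and none in IgG (0.025%). These genes are too few for a reading of the differences. CHD4, a remodeller of the NuRD complex, had Sp1 folds of 41.4 and 6.33, and CBX5, which encodes the heterochromatin protein HP1 alpha, had 14.7 and 4.33 with CTCF folds of 45.4 and 12.4. SETDB1, the histone methyltransferase recruited by TRIM28, had 4.10 and 7.60. TRIM28 itself, which lies on chromosome 19, and UHRF1 had no promoter summit in any list.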

How the data were processed

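ChIP-seq peak lists of U-2 OS cells were analysed. As the submitters' processing notes and the study's methods describe, the authors used cutadapt 2.6 for trimming, Bowtie2 2.4.5 for alignment to hg38, SAMtools 1.15.1 for duplicate removal (the methods name other versions of these last tools) and MACS2 2.2.7.1 for peak calling, which the methods call MACS3 under the same version number. There were 5 deposited lists, 1 per immunoprecipitated library. They hold a fold enrichment over the control, a ratio computed by the authors' peak caller, the deposited −log10 p and −log10 q, the deposited browser score, which was not used, and the summit offset. The lowest −log10 q in a list was between 1.30 and 1.43. The lists hold no read counts, which leaves depth unknown. Of 8 libraries, the 3 inputs were not analysed here.

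Genes were taken from GENCODE release 44, whose build matches the lists. A gene was scored for summits within 1 kb of any transcript start and, separately, inside the last exon of the Ensembl canonical transcript, and the highest fold was kept. The scoring was tested on simulated peaks planted at known genes. Shares, intervals, motif counts in the 250 bases before and 50 bases after the canonical start, 100-base repeats and finger counts were computed with Python 3.11.15, pandas 2.3.3, numpy 2.4.6 and scipy 1.17.1. No protein table was used, so fingers were counted in translated coding sequences, which departs from the design. The genes named were the 6 with the highest mean log2 fold of both Sp1 antibodies, up to 4 with either antibody alone, the 6 with the highest mean CTCF log2 fold at promoters, those with last exon summits and 12 with known roles. Others were named after their values were seen and are said to be so or are listed for completeness of a count. The members and lists were chosen with earlier results of these data known. The alternatives tried were another promoter distance, canonical starts only, peak intervals in place of summits, a stricter q, peaks without IgG overlap, genes without read-through symbols or shared windows, other definitions of the last exon, and each CTCF replicate left out. GENCODE genes that share a promoter window share its peaks and cannot be told apart.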

Additional observations from a re-analysis of the deposited data

How the results depend on the processing

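Of 71 alternative differences between ZNF genes and other genes of chromosome 19, 53 lay within the counting interval of the reported value. The other 18 lay outside it or, for the values per Mb, had another unit and were not compared with an interval. Where a value lay inside, its own interval could still lead to another reading, as for antibody 1 at canonical starts (8.76 points, 2.05 to 15.5). The direction changed within 5 kb of a start for antibody 1 and for both Sp1 antibodies, and in no other alternative. With promoters of 5 kb the differences were −3.19 points for antibody 1, 0.214 for antibody 2, −4.08 for both Sp1 antibodies and −21.1 for both CTCF replicates. At canonical starts only, the difference for both CTCF replicates was −0.0196 points. Without the run from ZNF101 to ZNF254, an alternative chosen after seeing the data, it was 12.8 points for antibody 1 and 14.0 for antibody 2. With peak intervals in place of summits, the last exon differences were −4.00 points for antibody 1, −1.80 for antibody 2, −1.39 for both Sp1 antibodies and −6.37 for both CTCF replicates. In the last exon of any transcript they were −2.12 for antibody 2, −1.30 for both Sp1 antibodies and −4.99 for both CTCF replicates, and in the coding part −0.338 for both CTCF replicates. Per Mb of last exon the differences were −12.2 summits for antibody 1, −8.14 for antibody 2 and −32.9 for CTCF, as the mean of the densities of both replicates. Values per Mb were not computed for both Sp1 antibodies. The causes were not tested, apart from the change of unit in the values per Mb. Leaving out either CTCF replicate gave −7.25 to −6.51 points at promoters and −3.60 to −3.19 in last exons. No paired analysis was possible because replicate numbers link CTCF only to its inputs, for which no peak list was used here. Unknown depth, 1 library per Sp1 antibody and genes that share peaks limit every share.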

Other observations

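Zinc finger genes of chromosome 19 with other symbols (ZFP, ZSCAN, ZBTB, ZIM, ZIK, ZKSCAN, MZF and PEG3), which the naming rule left among the comparison genes, numbered 20. Antibody 1 had a promoter summit at 10 of them, 50.0% (29.9 to 70.1), and antibody 2 at 4, 20.0% (8.07 to 41.6). Both CTCF replicates had one at 2, 10.0% (2.79 to 30.1). One of them had a last exon summit in CTCF replicate 1 and none in replicate 2. With so few genes these intervals include the shares of the ZNF genes in every list.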
